A study of Zea mays with 12 samples.

Results

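The 200 genes described here were the genes most specific to the kernel of watered maize, chosen out of 34423 gene IDs in the series. For every gene ID a score was taken from FPKM (fragments of a gene scaled for transcript length and for the mapped fragments of the library), dividing the lower of the 2 control kernel values plus 1 by the highest of the 4 control ear and control leaf values plus 1, and the 200 highest scores were kept. The inbred line B104 was grown in the field in all groups. Kernels and the ear leaf, which is the leaf at the node bearing the ear, were taken at 5 days after pollination (5DAP), and the young upper ear was taken at V9, a vegetative stage in which the spikelet primordia form. Drought plants had been kept in dry soil for 5 days, from pollination for kernel and leaf and at V9 for the ear, and control plants, labelled with the same stages, were kept well watered. Each of the 6 groups (drought and control kernel, leaf and ear) had 2 libraries, and according to the methods of the study each sample pooled organs from 4 plants. The kernel libraries are whole kernels, so that endosperm, embryo and the maternal tissues around them were measured as one, and fewer cells of a type cannot be told apart from less RNA per cell.

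A maize kernel at this stage is mostly maternal nucellus and pericarp, around a young endosperm and a small embryo. Growth in this period depends on wall loosening by expansins, on water uptake through aquaporins, and on sucrose that is split by cell wall invertase at the base of the kernel. Peroxidases, laccases and dirigent proteins take part in hardening the walls of tissues that stop growing. Cellulose synthases make the cellulose of walls, also in growing cells.

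Rounded totals lay between 3429219 and 5452598 counts per library, the lowest in control leaf 2, and at 3 counts a gene had between 0.466 and 1.31 CPM (counts scaled to the effective library size). Between the 2 control kernel libraries the chi-square per gene was 3.04 over 20099 genes with a mean of at least 20 counts, and 10.4 over the 200 kernel genes, against 1.31 and 1.47 between the 2 drought kernel libraries. Control kernel 1 was above control kernel 2 in 164 of the 200 genes, with a median ratio of 1.16, while over all 11979 genes with at least 10 FPKM in both libraries that ratio was 0.978. The labelled organs carried their markers: the summed FPKM of 5 leaf genes lay between 4674 and 20866 in the leaf libraries and between 52.8 and 146.9 elsewhere, and that of 7 ear genes between 269.9 and 341.5 in the ear and between 1.69 and 39.4 elsewhere. In the kernel these leaf genes summed to 96.0 and 105.1 FPKM in drought and 139.9 and 146.9 FPKM in control, and the ear genes to 23.5 and 26.5 FPKM in drought and 39.4 and 37.9 FPKM in control. Their part in the results was not tested. Most of the ear sum came from kn1 (GRMZM2G017087), with 177.4 to 219.4 FPKM in the ear and 15.4 to 21.1 FPKM in the kernel. The ear genes bd1, ra1 and ra3 had at most 8.08 FPKM in any ear library.

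The markers of the kernel itself gave a mixed picture. Of 8 endosperm and embryo genes 7 could be read, with sums of 41.9 and 44.8 FPKM in drought kernels and 45.3 and 40.6 FPKM in control kernels, and from 0.26 to 3.21 FPKM in the other organs. In control kernels nearly all of this sum came from mn1 (GRMZM2G119689), the cell wall invertase of the endosperm base, which was the only marker among the 200. The transfer cell gene MEG1 (GRMZM2G354335) had 1.76 and 2.09 FPKM in drought kernels and was listed at 0 in both control kernels, fie1 (GRMZM2G118205) stayed under 2 FPKM in all 4 kernel libraries, and lec1 (GRMZM2G011789) and tcrr-1 (GRMZM2G016145) stayed under 1 FPKM. The auxin biosynthesis gene yuc (GRMZM2G091819) was also higher in drought, with 27.1 and 33.2 FPKM in drought kernels and 1.41 and 2.46 FPKM in control kernels, while mn1 was lower, with 8.10 and 6.44 FPKM in drought kernels and 41.9 and 35.1 FPKM in control kernels. GRMZM2G137954, the other marker, had 2.54 and 1.94 FPKM in drought kernels and 1.07 and 1.60 FPKM in control kernels, and it was the only kernel marker called in another organ, with 2.80 and 3.03 FPKM in drought leaf where both control leaf libraries listed it at 0. From sections of kernels the study reported a delay of the whole kernel under drought, strongest in the basal endosperm transfer layer and the embryo. Whether the drought and control kernel libraries had reached the same point of development was not tested here. A difference in development and a response to drought cannot be told apart in the kernel comparisons. The 200 genes are therefore called kernel genes here by their rule, and not genes of the endosperm or of another kernel tissue.

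The scores of the 200 genes, which describe how they were chosen and are not a result, lay between 10.7 and 172.7 with a median of 16.3. The 3 genes just inside the limit, GRMZM2G149905, GRMZM2G049424 and GRMZM2G160763, scored 10.75, 10.74 and 10.74, and the 3 just outside it, GRMZM2G341934, GRMZM2G051005 and GRMZM2G079956, scored 10.67, 10.66 and 10.66, so the limit falls in a continuous range. The last of these inside genes, GRMZM2G049424 and GRMZM2G160763, had identical FPKM in all 12 libraries (20.7 and 18.5 FPKM in control kernels), as did GRMZM2G004298 and GRMZM2G096100, which RefSeq places in a single gene, and reads of such pairs cannot be assigned to either ID. By ID 158 of the 200 (79.0%) matched a gene of the RefSeq annotation of Zm-B73-REFERENCE-NAM-5.0, compared with 18529 of all 34423 IDs (53.8%). The matched genes were spread over all 10 chromosomes, from 9 genes on chromosome 9 to 25 on chromosome 2, and 3 pairs were immediate neighbours among protein-coding genes, among them GRMZM2G062718 and GRMZM2G409312 on chromosome 3.

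In control kernels the 200 genes took 3.49% and 3.11% of all FPKM, which again follows from the rule. In drought kernels they took 2.09% and 2.07%. Outside the kernel their share was 0.123% and 0.120% in drought leaf against 0.0352% and 0.0395% in control leaf, and 0.121% and 0.125% in drought ear against 0.0553% and 0.0591% in control ear. A single gene held much of the share in drought kernels and a smaller part of it in control kernels. Without GRMZM2G118873 the 200 genes took 1.49% and 1.48% in drought kernels and 3.17% and 2.83% in control kernels. The median gene had 10.4 and 9.72 FPKM in the drought kernel libraries and 46.1 and 43.8 FPKM in the control kernel libraries, and between 0.245 and 0.605 FPKM in each of the 8 leaf and ear libraries. In the drought kernel 73 genes kept less than 10% of their mean control FPKM, 62 kept between 10% and 50%, 29 kept between 50% and 100%, and 36 lay above their control mean.

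**Figure D1:**
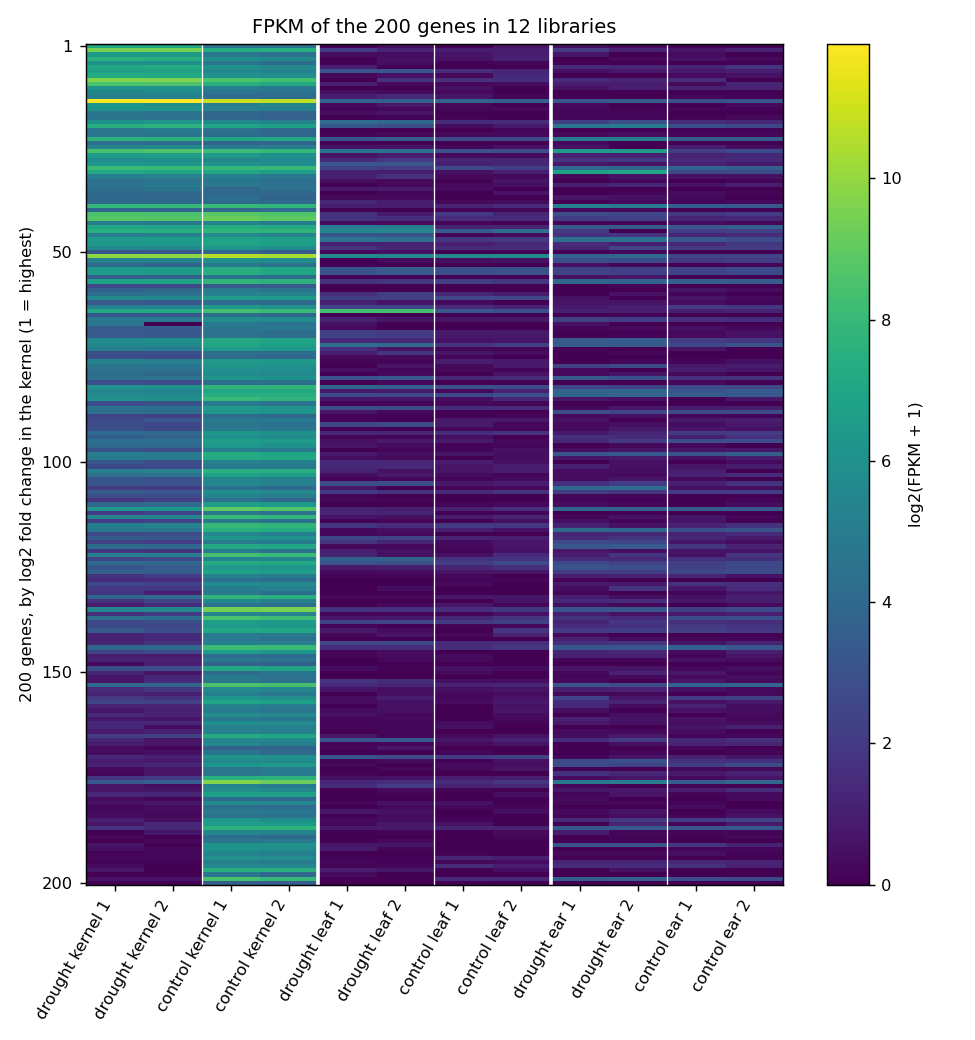
Level of each of the 200 genes in the 12 libraries, as log2(FPKM + 1) in colour, with genes ordered by their log2 fold change between drought and control kernel (highest at the top) and the drought libraries left of the control libraries in each organ. The control kernel columns are bright in all rows by the rule, the drought kernel columns darken from top to bottom, and single bright rows stand out in drought leaf and drought ear.

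The first question was how drought changed these genes in the kernel itself. They mostly fell: 130 of 200 were downregulated and 16 were upregulated in drought kernels (edgeR quasi-likelihood test, with a Benjamini-Hochberg adjusted p under 0.001 and a log2 fold change of 1 or more in size), and 54 passed neither way. Among all 26089 tested genes 13.5% were called lower and 13.7% higher in the same comparison. Because high control kernel values helped to choose the genes, a surplus of falls was built in to some degree and the count was not read as support. When the genes were chosen with control kernel 1 alone and drought was set against control kernel 2 alone, their median log2 fold change was -1.99. With the libraries exchanged it was -2.23. Of the genes so chosen, 184 and 193 were also in the main list. Both libraries are watered kernels, so the exchange removes only the noise of the choosing library and does not decide how many falls were built in. The control kernel libraries differed more from each other than the drought kernel or ear libraries did, and over all genes the control leaf libraries did so too. The spread used for the calls is shared by all groups and may be too small here. The median log2 fold change was -2.12 over the 200 genes and 0.0 over all tested genes, with quartiles of -4.22 and -0.38 over the 200. Both drought kernel libraries were below both control kernel libraries in FPKM in 159 genes and above both in 30, compared with 46.4% and 31.5% of all tested genes. The 130 falls had a median of -3.69 and the 16 rises a median of 1.47 on the log2 scale. On FPKM with limma and a pseudocount of 0.1 only 86 falls and 1 rise met the same criteria, and with a pseudocount of 1 there were 8 rises.

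The same rule applied to the other organs also gave more falls than rises in each of them. Of the 200 genes most specific to the control leaf, 148 fell and 5 rose in drought leaf, where 9.19% of all tested genes were called lower and 7.13% higher. Of the 200 most specific to the control ear, 112 fell in drought ear, where 3.29% of all genes were called lower and 3.95% higher. In this ear set 0 rose with edgeR, DESeq2 or limma on log2(FPKM + 1), with 5 at an unadjusted p under 0.05 (edgeR). As shares of 200 the falls were 65.0% for the kernel set, 74.0% for the leaf set and 56.0% for the ear set, each in its own organ. These shares are given side by side, each with the same built-in surplus of falls, and their differences were not tested.

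**Figure D2:**
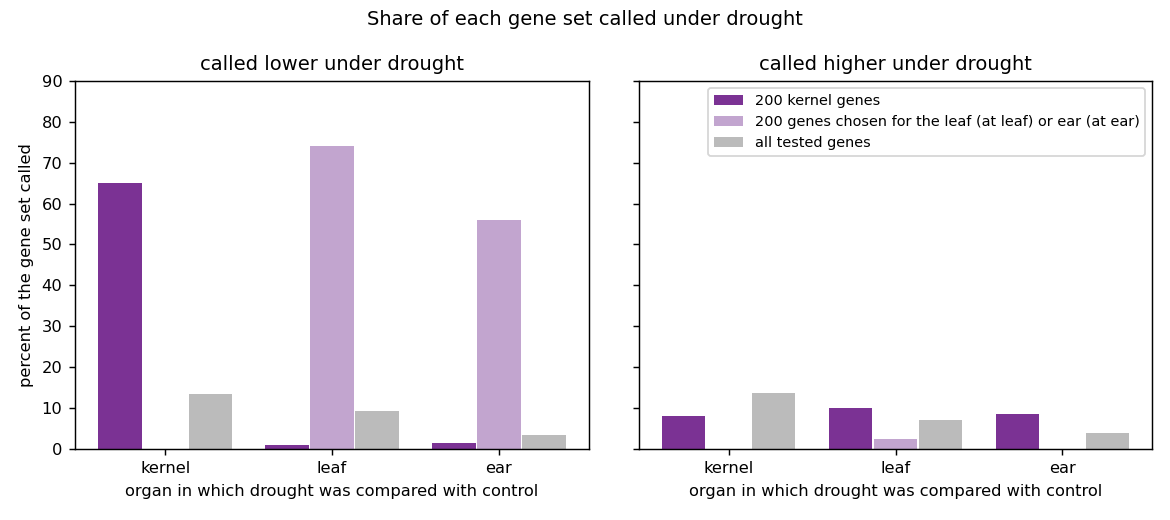
Percent of a gene set called lower (left panel) or higher (right panel) under drought in kernel, leaf and ear, for the 200 kernel genes, for the 200 genes chosen by the same rule for the leaf or the ear in their own organ, and for all 26089 tested genes. The kernel genes reach 65.0% called lower in the kernel, while 10% of them were called higher in the leaf and 8.5% in the ear.

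The drought libraries took no part in the choice, and they were used to ask whether the genes were still kernel genes under drought. In drought plants 139 of the 200 were higher in kernel than in leaf and 142 higher in kernel than in ear, where 19.3% and 18.5% of all tested genes were called higher. Both held for 127 genes, compared with 5.81% of all tested genes. Only 6 were lower in drought kernel than in drought leaf and 9 lower than in drought ear, where the backgrounds were 18.7% and 13.7%. The median log2 difference was 4.16 towards the kernel against the leaf and 3.72 against the ear, beside 0.06 and 0.01 over all tested genes. When the score was taken over the 6 drought libraries instead, 59 of the 200 were again among the 200 highest, and these included all 16 upregulated genes, 30 that were not called and 13 that fell. The median score of the 200 genes in the drought libraries was 3.06.

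**Figure D3:**
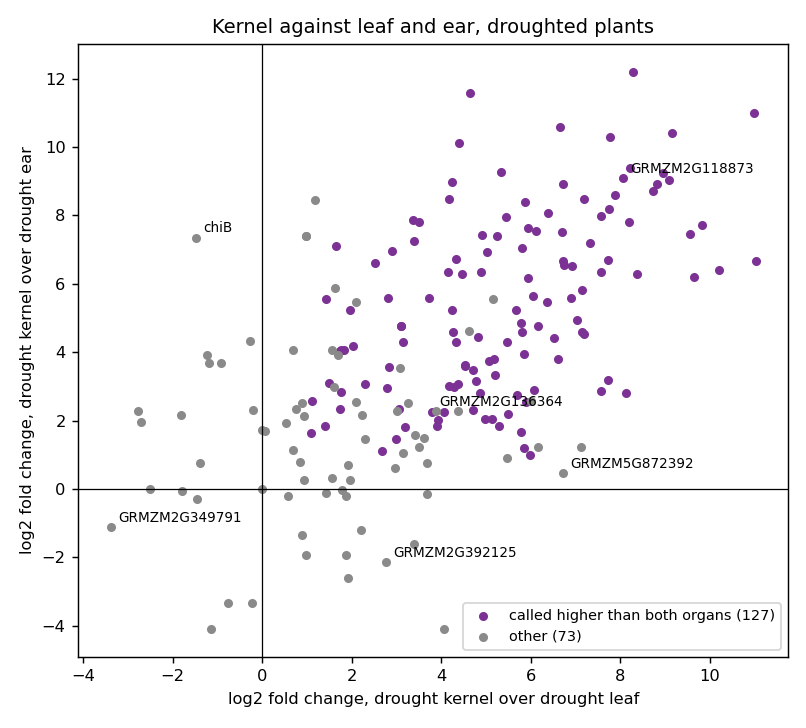
For each of the 200 genes, the log2 fold change of drought kernel over drought leaf (horizontal) and of drought kernel over drought ear (vertical). The 127 genes called higher in the kernel than in both organs are in purple and the other 73 in grey, and chiB lies left of zero because drought leaf exceeded drought kernel.

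Among the 12 genes with the highest scores, 8 fell, 2 rose and 2 were not called in the kernel. The highest score belonged to GRMZM2G000566, with 436.1 and 426.7 FPKM in drought kernels against 557.7 and 475.5 FPKM in control kernels and at most 3.96 FPKM in any leaf or ear library. The FPKM groups did not overlap, but on TMM-scaled counts its log2 fold change was -0.06 ± 0.07 (SE) and was not called. GRMZM2G114356, with 363.7 and 355.5 FPKM in drought kernels against 452.1 and 397.8 FPKM in control kernels, was likewise not called (-0.04 ± 0.09). Both genes kept most of their watered level, while most of the list fell.

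Several of the strongest kernel genes were almost lost under drought. GRMZM2G092968, second by score, had 0.68 and 0 FPKM in drought kernels against 172.0 and 179.7 FPKM in control kernels. With 3 counts in drought and 1575 in control, it was 447-fold lower, with a 95% interval from counting alone of 153 to 2177. GRMZM5G805382 had 0.50 FPKM in each drought kernel against 345.7 and 243.6 FPKM in control kernels (515-fold lower, counting interval 200.2 to 1885), although it stayed at 10.3 and 11.6 FPKM in drought ear against 6.07 and 5.43 FPKM in control ear. In these genes the drought and control kernels were separated by more than 2 orders of magnitude, far beyond the spread between libraries. GRMZM2G162755 had 0.21 FPKM in each drought kernel against 63.7 and 55.3 FPKM in control kernels, and it also fell in the leaf, with 0.10 FPKM in each drought leaf against 1.46 and 0.93 FPKM in control leaves. GRMZM2G113761 had 0.57 and 1.52 FPKM in drought kernels against 101.5 and 88.0 FPKM in control kernels. GRMZM2G019916 and GRMZM2G141584 had no count in either drought kernel and were at least 19.7-fold and 21.6-fold lower than in control kernels, taking 3 counts per library as the floor.

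Less extreme falls kept a measurable level in drought. GRMZM2G009465 had 2.71 and 3.15 FPKM in drought kernels against 192.6 and 198.3 FPKM in control kernels (log2 fold change -5.85 ± 0.17). GRMZM2G045215 had 3.51 and 3.87 FPKM against 165.6 and 128.5 FPKM in control kernels (-5.11 ± 0.23). GRMZM2G097884, with 8.75 and 10.7 FPKM in drought kernels, reached 815.4 and 577.8 FPKM in control kernels (-5.90 ± 0.18). Of the other high scores, GRMZM2G103512, GRMZM5G800014 and GRMZM2G125441 fell with log2 fold changes of -3.52, -2.46 and -1.67. None of these 6 carries a name or a best hit in the sources used here.

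**Figure D4:**
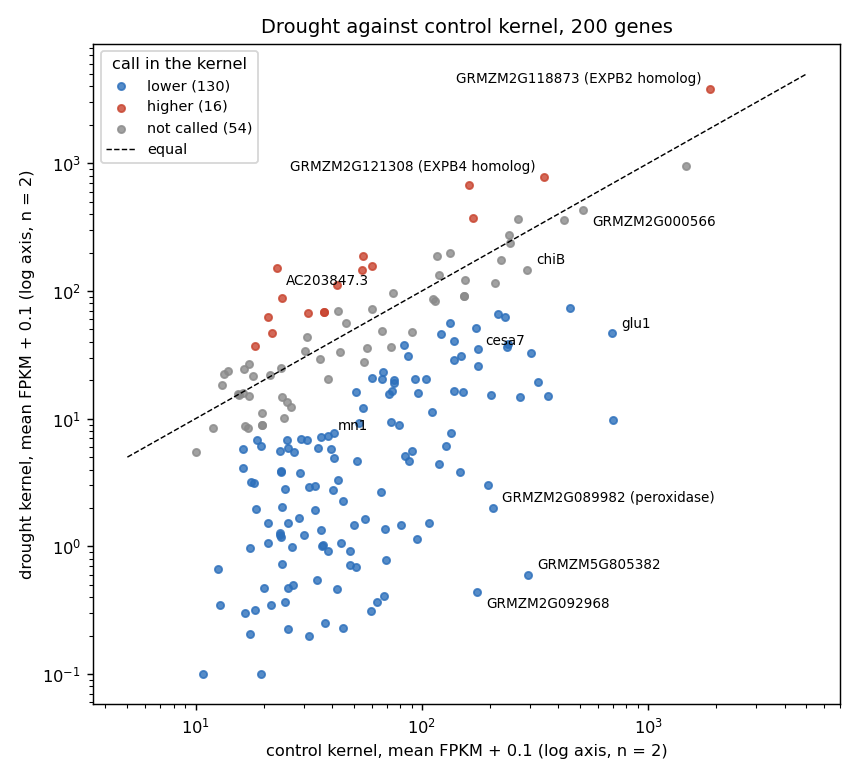
Mean FPKM plus 0.1 in drought kernel (vertical) against control kernel (horizontal) for the 200 genes, both on log axes with n = 2 libraries, coloured by their call in the kernel. Most points lie below the dashed line of equal values, with GRMZM5G805382 and GRMZM2G092968 farthest below it among the labelled genes, and the highest gene, GRMZM2G118873, lies above it.

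The 16 upregulated genes changed less, by log2 fold changes of 1.08 to 2.89. The largest rise was that of AC203847.3, with 152.2 and 147.7 FPKM in drought kernels against 22.1 and 23.4 FPKM in control kernels (2.89 ± 0.13), and it had at most 0.54 FPKM elsewhere. GRMZM2G450512 had 681.5 and 675.7 FPKM in drought kernels against 153.6 and 170.7 FPKM in control kernels (2.27 ± 0.09). GRMZM2G046532 had 89.4 and 86.9 FPKM against 27.5 and 20.7 FPKM in control kernels (2.07 ± 0.18). In all 3 genes the drought libraries lay close together and well above both controls. GRMZM2G166141, GRMZM2G123037, GRMZM2G164090, GRMZM2G076029 and GRMZM2G068513 rose by 1.98, 1.79, 1.63, 1.61 and 1.57 on the log2 scale. Only 2 of the 16 have a name or best hit, and both are expansins.

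The 45 kernel genes that RefSeq names or that the study's supplementary tables pair with an Arabidopsis best hit were grouped by role. In the kernel 65.0% of all 200 genes fell and 8.0% rose, and the counts by group are a description beside these shares. Of the 28 genes with a best hit, 27 came from tables of kernel genes that the study selected as changed by drought in these samples, so that the directions of groups resting on them are not independent evidence.

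Expansins, small wall proteins that loosen the contacts between cellulose and other wall polymers, were split in direction. Of 8 expansin genes 2 rose and 6 fell in the kernel, beside 8.0% and 65.0% of all 200 genes. The 2 that rose were the most abundant by far. The EXPB2 homolog GRMZM2G118873, the most abundant of all 200 genes, had 3833 and 3813 FPKM in drought kernels against 2027 and 1732 FPKM in control kernels (log2 fold change 1.22 ± 0.06, adjusted p = 1.82e-15, edgeR), and at most 13.2 FPKM in any leaf or ear library. The EXPB4 homolog GRMZM2G121308 had 795.8 and 768.5 FPKM in drought kernels against 383.9 and 310.4 FPKM in control kernels (1.36 ± 0.12). On a per-length scale these genes thus stood above every other expansin of the list in both groups. The largest fall was that of expB4 (GRMZM2G154178), with 0.65 and 1.53 FPKM in drought kernels against 26.7 and 20.6 FPKM in control kernels. The EXPB3 homolog GRMZM2G169967 had 5.44 and 4.54 FPKM against 90.6 and 76.9 FPKM in control kernels, and expB6 (GRMZM2G176595) had 32.6 and 37.2 FPKM against 185.1 and 169.0 FPKM in control kernels. The remaining falls were those of GRMZM2G094990, expA3 (GRMZM2G074585) and GRMZM2G056236, with log2 fold changes of -1.99, -1.43 and -1.34. Among the 16 genes that carry an expansin name in RefSeq, a list that does not depend on the study's tables, 11 could be tested in these libraries, and 9 fell and 1 rose in drought kernels. Of those outside the 200 genes, 6 fell and 1 rose. Among all tested genes 13.5% fell and 13.7% rose in this comparison.

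All 7 peroxidases fell in the kernel. Class III peroxidases use hydrogen peroxide to cross-link wall phenolics and to polymerise lignin. The labels used here name these 7 genes only as peroxidases and give no class. GRMZM2G089982 had 2.31 and 1.5 FPKM in drought kernels against 201.1 and 209.7 FPKM in control kernels (log2 fold change -6.54 ± 0.22), and 8.49 and 9.18 FPKM in drought ear against 7.18 and 8.54 FPKM in control ear. GRMZM2G020523 had 4.44 and 4.12 FPKM in drought kernels against 129.9 and 108.9 FPKM in control kernels (-4.60 ± 0.21). The smallest fall was that of GRMZM2G061230, with 32.2 and 29.7 FPKM in drought kernels against 92.9 and 80.1 FPKM in control kernels (-1.27 ± 0.13). The median log2 fold change of the 7 genes was -4.60, beside -2.12 over the 200 genes. All 7 were taken from the study's tables of changed genes. In the leaf 0 of the 7 met the criteria with edgeR, DESeq2 or limma on log2(FPKM + 1), with 1 higher and 3 lower at an unadjusted p under 0.05 (edgeR), and in the ear 0 met them, with 1 higher and 1 lower at that p.

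The 5 other wall and lignin genes also fell. The cellulose synthase gene cesa7 (GRMZM2G025231) had 51.4 and 50.3 FPKM in drought kernels against 170.6 and 175.7 FPKM in control kernels (log2 fold change -1.58 ± 0.08). The 2 dirigent-like genes GRMZM2G433184 and GRMZM2G097967, a family that guides the coupling of monolignols, had at most 1.24 FPKM in drought kernels and at least 11.6 FPKM in control kernels. The cellulase gene Cel12Chr1 (GRMZM2G178025) had 5.42 and 5.36 FPKM in drought kernels against 27.4 and 26.7 FPKM in control kernels. Laccase-13 (GRMZM5G814718), of the copper oxidases that polymerise lignin, had 3.23 and 4.33 FPKM in drought kernels against 25.9 and 21.4 FPKM in control kernels, and rose in the leaf to 1.36 and 1.32 FPKM in drought against 0.08 and 0.13 FPKM in control.

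Of 7 transcription factor genes 5 fell and 2 were not called, beside falls in 65.0% of all 200 genes. MYB proteins with these Arabidopsis best hits include regulators of secondary walls and of epidermal cells. The MYB86 homolog GRMZM2G064744 had 0.10 and 0.20 FPKM in drought kernels against 40.4 and 33.8 FPKM in control kernels, and the MYB61 homolog GRMZM2G127490 had 0.29 and 0.21 FPKM against 20.6 and 22.4 FPKM in control kernels. Myb20 (GRMZM2G150841) had 0.59 and 1.67 FPKM against 25.3 and 21.8 FPKM in control kernels. In these 3 genes the drought level was close to that of leaf and ear. YAB3 (GRMZM2G106204), a YABBY gene of the family that sets the polarity of lateral organs, had 41.1 and 40.5 FPKM in drought kernels against 129.1 and 146.9 FPKM in control kernels (log2 fold change -1.56 ± 0.11). The homolog of NST1 (GRMZM2G092465), a NAC factor that in Arabidopsis switches on secondary wall genes, had 10.03 and 9.97 FPKM in drought kernels against 23.2 and 25.97 FPKM in control kernels, and with a log2 fold change of -0.95 ± 0.17 it missed the fold criterion. Myb35 (GRMZM2G088783) had 15.5 and 13.9 FPKM in drought kernels against 27.3 and 20.6 FPKM in control kernels and was not called.

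Genes of transport and sugar use were few. The tonoplast aquaporin gene TIP4-3 (GRMZM2G146627) had 0.52 and 0.70 FPKM in drought kernels against 50.8 and 45.0 FPKM in control kernels (log2 fold change -6.08 ± 0.56). The plasma membrane aquaporin gene ZmPIP2-3 (GRMZM2G081192) had 19.6 and 20.8 FPKM in drought kernels against 38.1 and 38.7 FPKM in control kernels and missed the fold criterion (-0.72 ± 0.15). The invertase gene mn1 had 8.10 and 6.44 FPKM in drought kernels against 41.9 and 35.1 FPKM in control kernels (-2.22 ± 0.17). It was thus 4.67-fold lower, with no overlap between the groups. The gene glu1 (GRMZM2G016890), whose beta-glucosidase releases the defence compound DIMBOA from its glucoside, had 44.7 and 48.0 FPKM in drought kernels against 663.1 and 717.6 FPKM in control kernels (12.8-fold lower).

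None of the 15 genes of kernel filling and storage that were looked up was among the 200, and 14 could be read. In drought kernels 2 of them rose, 3 fell, 7 were not called and 2 were not tested, where 13.7% of all tested genes were called higher and 13.5% lower. The sucrose synthase gene sh1 (GRMZM2G089713) had 639.1 and 632.0 FPKM in drought kernels against 163.9 and 177.0 FPKM in control kernels, whereas sus1 (GRMZM2G152908), of the same enzyme family, had 60.3 and 53.6 FPKM against 514.2 and 493.9 FPKM in control kernels. Sucrose cleavage genes hence went both ways, with mn1 and sus1 lower and sh1 higher.

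The 3 named flavonoid genes fell strongly. The gene A1 (GRMZM2G026930), for dihydroflavonol reductase of the anthocyanin and phlobaphene pathway, had 20.3 and 17.96 FPKM in drought kernels against 356.6 and 297.5 FPKM in control kernels (14.2-fold lower). CGTb (GRMZM2G383404) had 15.9 and 14.2 FPKM against 379.6 and 338.5 FPKM in control kernels (20.8-fold lower). The salmon silk gene sm2 (GRMZM2G180283) had 0.26 and 0 FPKM against 44.7 and 44.3 FPKM in control kernels, with 2 counts in drought and 710 in control (303-fold lower, counting interval 83.6 to 2508). A1 and CGTb were also lower in drought ear, with 2.31 and 1.73 FPKM against 5.28 and 6.30 FPKM in control ear for A1, and 7.13 and 6.09 FPKM against 11.96 and 13.7 FPKM in control ear for CGTb. CGTb and GRMZM2G162755, which fell to near 0 in drought kernels, were neighbours on chromosome 6.

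Of the 10 other named genes 7 fell and 3 were not called in the kernel, beside falls in 65.0% of all 200 genes. The beta-tubulin gene tub4 (GRMZM2G066191) had 17.7 and 14.7 FPKM in drought kernels against 160.8 and 142.9 FPKM in control kernels. The homolog of CYCP4;2 (GRMZM2G076468), a cyclin, had 2.33 and 3.35 FPKM against 34.9 and 28.4 FPKM in control kernels. PMP3 (GRMZM2G477325), a small hydrophobic membrane protein gene, had 86.6 and 87.3 FPKM in drought kernels against 117.3 and 107.4 FPKM in control kernels and was not called there, but it rose in both other organs. It had 21.9 and 19.8 FPKM in drought leaf against 2.83 and 3.08 FPKM in control leaf, and 20.1 and 21.6 FPKM in drought ear against 8.25 and 6.10 FPKM in control ear.

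**Figure D5:**
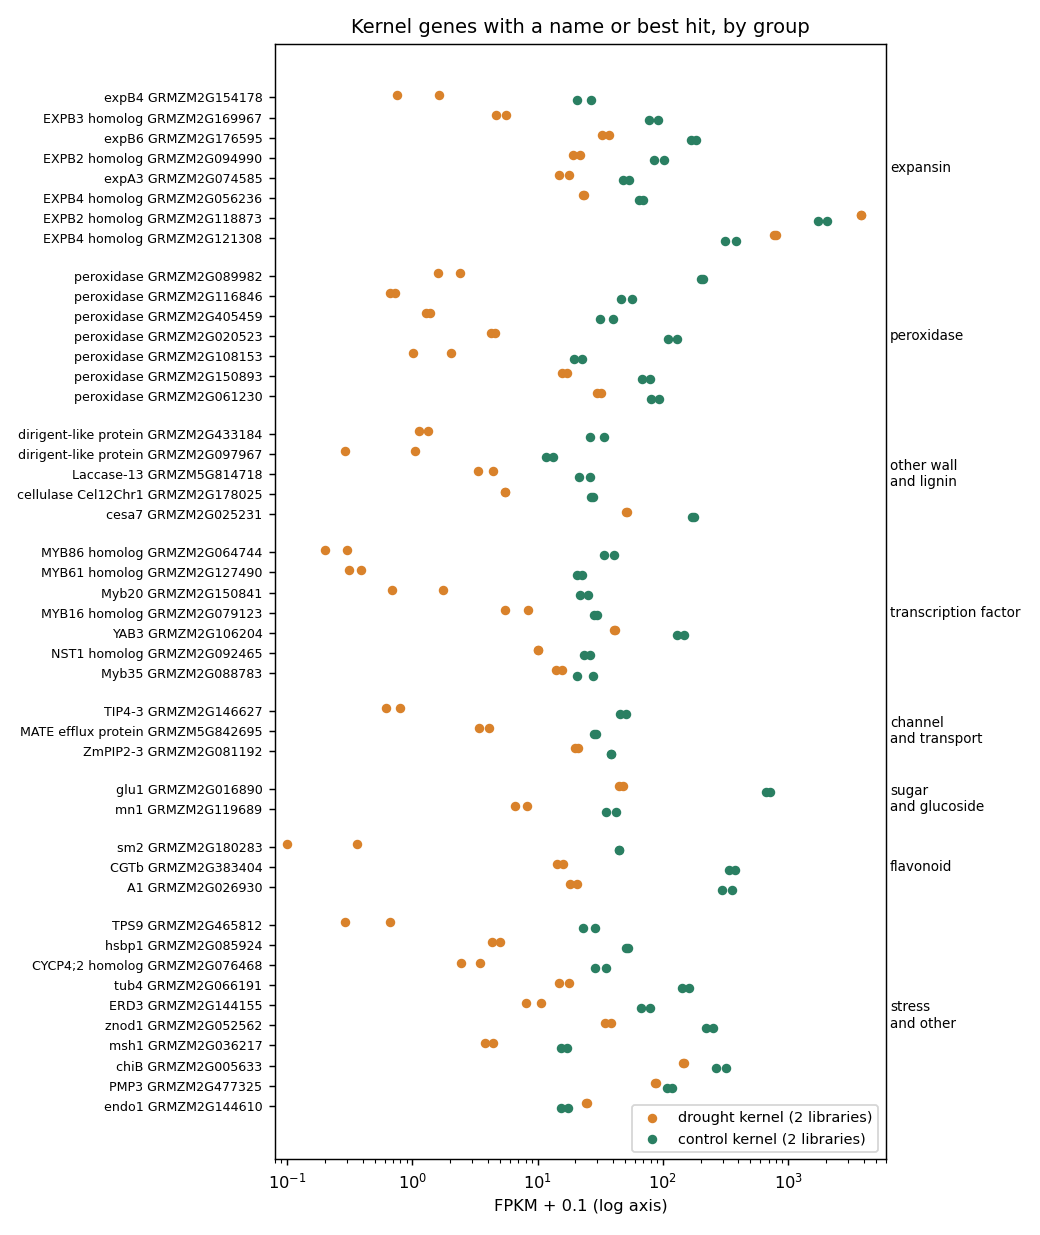
FPKM plus 0.1 on a log axis in the drought kernel libraries (orange, upper of each pair) and the control kernel libraries (green, lower) for the 45 kernel genes with a name or best hit, by group. Drought points lie left of control points in nearly every gene, with the exceptions of the expansins GRMZM2G118873 and GRMZM2G121308 and of endo1, which was not called.

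The second question was whether drought brought these genes up in organs where they were low. In the leaf 20 of the 200 rose and 2 (GRMZM2G162755 and sm2) fell, where 7.13% of all tested genes were called higher and 9.19% lower. In the ear 17 rose and 3 (A1, CGTb and GRMZM2G094990) fell, where 3.95% were called higher and 3.29% lower. Since low control leaf and ear values were part of the rule, rises there were favoured and falls had little room. These counts are a description. Most of the genes stayed low: 11 had a mean of at least 10 FPKM in drought leaf, against 3 in control leaf, and 16 in drought ear, against 5 in control ear. The leaf count was 12 without control leaf 1.

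The chitinase gene chiB (GRMZM2G005633), whose enzyme attacks fungal chitin, lost its kernel specificity. It had 333.5 and 324.8 FPKM in drought leaf against 8.54 and 6.93 FPKM in control leaf (log2 fold change 5.03 ± 0.15, adjusted p = 1.99e-22, edgeR). In the kernel it had 145.7 and 148.2 FPKM in drought against 321.3 and 263.9 FPKM in control (-0.80 ± 0.08), so that under drought the leaf level was above the kernel level. In the ear it stayed near 1 FPKM. GRMZM2G058032 had 28.8 and 30.4 FPKM in drought leaf against 1.27 and 1.22 FPKM in control leaf, GRMZM2G414159 had 7.5 and 7.76 FPKM against 0.17 and 0.30 FPKM in control leaf, and GRMZM2G177095 had 8.19 and 6.24 FPKM against 0.33 and 0.80 FPKM in control leaf. None of the 4 was called in the kernel.

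In the ear the largest changes by the rule were rises of GRMZM5G872392, GRMZM2G136364, GRMZM2G392125 and the MATE efflux gene GRMZM5G842695. GRMZM5G872392 had 114.8 and 125.0 FPKM in drought ear against 5.07 and 5.43 FPKM in control ear (log2 fold change 4.41 ± 0.17), which brought it near its kernel level of 134.0 and 131.3 FPKM in drought and 135.6 and 101.2 FPKM in control. GRMZM2G136364 had 90.8 and 93.2 FPKM in drought ear against 3.73 and 5.31 FPKM in control ear (4.25 ± 0.21). It also rose in the leaf, with 22.8 and 19.1 FPKM in drought against 6.53 and 6.05 FPKM in control. GRMZM2G392125 had 15.0 and 16.9 FPKM in drought ear against 0.44 and 0.37 FPKM in control ear, and only 3.23 and 3.00 FPKM in drought kernels against 19.1 and 15.8 FPKM in control kernels. This gene thus stood higher in drought ear than in drought kernel, the reverse of its order in watered plants.

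Such opposite changes were seen in 16 genes. In the leaf 8 of the 200 rose while falling in the kernel, where 0.491% of all tested genes did so, and in the ear 9 rose while falling in the kernel, where 0.184% did so. GRMZM2G059706 was in both sets. No test of the difference between organs is given for these 17 pairs, since they were picked for their opposite calls from genes chosen on the same control values. Of the 20 genes that rose in the leaf 8 fell in the kernel, and of the 17 that rose in the ear 9 did. Of all 200 genes 65.0% fell in the kernel. The largest difference with the leaf was that of GRMZM2G349791, chosen after its values were seen, with 1.38 and 0.55 FPKM in drought kernels against 41.5 and 46.1 FPKM in control kernels, and 7.97 and 8.56 FPKM in drought leaf against 0.65 and 1.25 FPKM in control leaf. Laccase-13, ERD3 (GRMZM2G144155) and the EXPB4 homolog GRMZM2G056236 belonged to these 16. The rule, which took genes high in control kernel and low in control leaf and ear, favours this combination as well. It works against rises in the kernel, where 16 of the 200 (8.0%) were called higher. The counts of joint rises are therefore a description and not a result. Of the 200 genes 1, GRMZM2G076029, rose in both drought kernel and drought leaf, where 3.27% of all tested genes did so. In both drought kernel and drought ear 0 rose with edgeR, DESeq2 or limma on log2(FPKM + 1), with 5 at an unadjusted p under 0.05 in each (edgeR), where 2.35% of all tested genes rose.

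GRMZM2G069820, chosen after its values were seen, was split between replicates. It had 24.7 FPKM in drought kernel 1 and 0 FPKM in drought kernel 2, against 30.5 and 22.4 FPKM in control kernels, and was not called.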

How the data were processed

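Whole organs were sequenced as oligo(dT)-selected RNA on an Illumina instrument. The aligner, counting program, build and annotation are not given in the sources used here. The authors deposited, for each gene and library, expected counts (estimated numbers of reads, not normalized) and FPKM as deposited by the authors, scaled for gene length and mapped reads. A gene that a library did not list was given 0. Expected counts were rounded, filtered with filterByExpr (26089 genes kept, all 200 kernel genes among them), and entered as 6 group means, with TMM scaling, into edgeR 4.0.16 (R 4.3.3). Drought was compared with control in each organ, and drought kernel with drought leaf and ear, with quasi-likelihood F tests and Benjamini-Hochberg adjustment over all tested genes. A call needed an adjusted p under 0.001 with a log2 fold change of 1 or more in size. Values after ± are SE of log2 fold changes. Their spread is estimated over all groups together, while the control kernel libraries differed more from each other than the drought kernel libraries did. Between the control leaf libraries the chi-square per gene was 3.98 over 16047 genes, and 0.944 over the 22 kernel genes with enough counts. SE and p of the kernel and leaf comparisons may therefore be too small. FPKM describes levels, and CPM on TMM-scaled counts describes folds.

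The members, gene lists, tests and named genes were chosen with earlier results of these data known. Genes were named by rule: the 12 highest scores, 3 on each side of the limit, the 8 largest falls and rises among kernel calls with at least 20 mean counts and no overlap of libraries, the 4 largest changes in leaf and in ear, and annotated genes. Names came from RefSeq or from Arabidopsis best hits in the study's supplementary tables, whose values were not used.

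Libraries are separate samples of pooled plants. Whether leaf and kernel came from the same plants is not stated, and the fit treats them as independent. Counting intervals are exact binomial at 95% and cover counting error only, as does the floor of 3 counts. Deviations of same-numbered control and drought libraries correlated at 0.02, -0.02 and 0.02 in kernel, leaf and ear, and the replicate numbers were not used as pairs. The field plots of the study were laid out in randomized complete blocks. Whether replicate numbers stand for blocks is not stated, and so few libraries per group cannot exclude it. Simulated data of 25436 genes for the kernel comparison checked only the working of the fit: 190 of 200 genes given large fixed changes were recovered, with 4 false calls. The simulated noise came from the fit itself and was alike in all groups, unlike that of the control kernels. It therefore gives no error rate for the 200 kernel genes. Alternatives were DESeq2 1.42.0, limma 3.58.1 on log2(FPKM + 1) and log2(FPKM + 0.1), other scalings, filters, thresholds and member rules, a replicate block and leaving out each library. Choosing on 1 control kernel library, counting identical rows once, and the difference of the drought effect between organs were added after seeing the data.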

Additional observations from a re-analysis of the deposited data

Results flagged for a closer look

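In 3 of the kernel genes with the largest changes the drought effect in the kernel differed in direction from that in the ear. No p is given for the difference, because the genes were chosen for a high control kernel and a low control ear, which favours this outcome, and the pairs were then picked for their opposite calls. For GRMZM2G097884 the kernel effect minus the ear effect was -7.17 on the log2 scale, with 9.74 FPKM in drought kernel against 696.6 FPKM in control kernel and 29.0 FPKM in drought ear against 12.2 FPKM in control ear (means, n = 2). For GRMZM2G392125 it was -7.42. For the MATE efflux gene GRMZM5G842695 it was -6.09, with 3.65 FPKM in drought kernel against 28.8 FPKM in control kernel and 4.99 FPKM in drought ear against 0.495 FPKM in control ear. Each showed its direction in both drought libraries of both organs.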

How the results depend on the processing

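The alternatives changed the small counts more than the large ones, and the cause was not tested. With limma on log2(FPKM + 0.1) the kernel falls were 86 instead of 130, the kernel rises 1 instead of 16, the ear rises 11 instead of 17, the leaf and ear falls 1 each and the kernel median -2.33 instead of -2.12. With limma on log2(FPKM + 1) the kernel rises were 8 and the leaf and ear falls 1 each. Tested against a log2 fold change of 1, the kernel rises were 9, the leaf rises 10, the ear rises 6, the leaf falls 1 and the ear falls 0. An adjusted p under 0.05 gave 31 rises and 7 falls in the leaf and 10 falls in the ear. Leaf falls were 1 with DESeq2 and 0 with organs fitted alone. With library size only the kernel median was -2.32.

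The 100 highest scores gave 69 falls and 10 rises in the kernel (median -2.30), 6 rises and 1 fall in the leaf, 11 rises in the ear, and 75 and 74 genes higher in drought kernel than in drought leaf and ear. The 400 highest gave 247 falls and 33 rises in the kernel, 49 rises in the leaf, 32 rises and 9 falls in the ear, and 258 and 257 higher. A score pseudocount of 0.1 shared 131 of the 200 genes and gave 8 rises and 1 fall in the leaf and 11 rises and 1 fall in the ear. A pseudocount of 10 shared 118 and gave 32 rises and 4 falls in the leaf and 7 falls in the ear. Chosen on control kernel 1 or on control kernel 2 alone, 6 or 5 genes fell in the ear.

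Leaving out 1 library at a time gave 126 to 131 falls and 15 to 20 rises in the kernel, 12 to 20 rises and 0 to 3 falls in the leaf, 13 to 17 rises and 1 to 5 falls in the ear, 128 to 142 genes higher in drought kernel than leaf, 133 to 144 higher than ear, and a kernel median between -2.22 and -2.01. The lone library of a group is assumed to vary like the others. GRMZM2G000566 and GRMZM2G114356, which were not called, ranged from -0.19 to 0.079 and from -0.15 to 0.074 on the log2 scale, reversing without control kernel 1. The leaf falls were 0 without control leaf 1, drought leaf 1 or drought leaf 2, and the ear falls 1 without control ear 2 and 5 without control kernel 1 or 2.

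With the replicate block the kernel counts stayed at 130 and 16, the leaf had 20 rises and 3 falls and the ear 16 rises and 4 falls. Whether the replicate numbers pair samples is not known. For named genes, 1424 of 1460 values under the alternatives kept their direction and side of the criteria, 31 no longer met them (25 with limma on log2(FPKM + 0.1)), 3 newly met them and 2 reversed. Depth limits the leaf and ear values, where 35 to 54 of the 200 genes were listed at 0 in each library.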
